A study of Homo sapiens with 12 samples.

Results

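GDF15 and 7 other genes for secreted hormones that cells make under stress were followed in KP4, a human pancreatic ductal carcinoma cell line. The 8 genes were GDF15, ADM, STC1, STC2, VEGFA, ANGPTL4, FGF21 and INHBE, out of 36601 genes in the table. They were chosen by earlier results of these libraries and by what is known of them. GDF15 and ADM were known to be higher with both drugs than with metformin alone, STC2 is named by the study, and the others are well-known stress-induced hormones. Their own levels are therefore described, with no test. The cells, labelled wild type, received the vehicle DMSO, metformin at 10 mM (Met), FK866 at 5 nM (FK) or the 2 drugs together (Met+FK). Metformin blocks complex I of mitochondrial respiration, and FK866 blocks NAMPT, an enzyme that recycles nicotinamide into NAD. Total RNA was taken after 24 h and depleted of ribosomal RNA, and each treatment had 3 libraries of paired reads. All treatments were given to 1 cell line at 1 dose per drug and 1 time, and the labels do not say whether the replicates were separate cultures. The values are of RNA, and no secreted protein was analysed here.

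Each library held between 30667735 and 41052203 read pairs counted on genes (median 34767231), and values are normalized counts, that is, read pairs divided by a size factor per library. Of the 8 genes, 7 reached a mean of 10 normalized counts and entered the fit across 15376 genes. FGF21 did not, and INHBE passed only through its levels in libraries with metformin. The ductal label was read against 8 epithelial markers, of which 7 were tested, and EPCAM was too low to be tested. In DMSO, KRT18 stood at 18307 ± 394 and KRT8 at 3156 ± 96.3, but MUC1 at 104 ± 6.98 and KRT19 at 56.5 ± 16.3. KRT19 was called lower with Met+FK (16.9 ± 3.13, log2 -1.66, adjusted p = 0.000117 by limma-trend). A sum carried by a few of these genes does not decide whether the cells are ductal. The summed level of the 8 markers, most of it KRT18, was lower in all 3 treated groups (25327 to 26266 in DMSO, 19378 to 22878 in FK, 16512 to 19694 in Met and 16238 to 19672 in Met+FK). Not all of them went that way: CDH1 was called higher with Met (28.5 ± 5.53 to 61.4 ± 12.4, log2 1.07, adjusted p = 0.000831 by limma-trend), and SOX9 stood at 3781 ± 340 in DMSO, 4865 ± 436 in FK and 4444 ± 275 in Met. The acinar and endocrine markers CPA1, AMY2A, INS and SST were at 0, and the sums of 3 leukocyte markers lay between 915 and 1243 and those of 3 endothelial markers between 22.0 and 56.3. The sums of 4 fibroblast markers, with DCN at 0, were 139 to 203 in DMSO, 240 to 315 in FK, 79.4 to 112 in Met and 90.9 to 115 in Met+FK, and their main part, COL1A1, was called higher with FK (0.91) and lower with Met (-1.15). The part of these shifts in the results was not tested. In bulk RNA, a change in the RNA made per cell and a change in the share of cells that make it cannot be told apart.

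Cells under stress send hormones to the rest of the body. When mitochondria fail, amino acids run short or misfolded proteins build up, kinases phosphorylate the translation factor eIF2alpha, and the transcription factor ATF4 is then translated more. This is the integrated stress response, and GDF15, FGF21, STC2 and INHBE are known among its outputs. Low oxygen instead stabilizes hypoxia-inducible factors (HIF), for which VEGFA, ADM and ANGPTL4 are classical target genes. GDF15 acts through the receptor GFRAL in the hindbrain to lower food intake, and its blood level is known to be higher in people who take metformin.

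GDF15, a distant member of the TGF-beta family, was higher with each drug and highest with both. Its gene lies on chromosome 19 (hg38, 18374731 to 18389176, plus strand). In DMSO the 3 libraries held 506, 478 and 524 normalized counts (502 ± 23.1, mean and SD, n = 3, as for all means below), and in FK 1403, 1443 and 1433 (1426 ± 21.0). In Met they held 1645, 1623 and 1989 (1752 ± 205), and in Met+FK 2999, 3447 and 3433 (3293 ± 255). In these libraries the order ran from DMSO through FK and Met to Met+FK. No library of one treatment reached into the range of another, although FK and Met lie close together. That Met+FK lay above Met was known when the gene was chosen, so the order was not tested. The log2 fold change was 1.80 (SE 0.091, as in every comparison of this gene) for Met against DMSO, 1.504 for FK against DMSO and 2.71 for Met+FK against DMSO. Met+FK stood 1.88-fold above Met (log2 0.91) and 2.30-fold above FK (log2 1.204), and Met exceeded FK by 0.29 on the log2 scale. In every pair of same-numbered libraries Met+FK lay above Met, by log2 0.87, 1.09 and 0.79. GDF15 is GC-rich (62.9% of its canonical transcript), and the libraries differ in how values depend on GC content, from -0.245 (log2 per 10 percentage points) in replicate 2 of FK to 0.196 in replicate 1 of DMSO. All 3 DMSO libraries (0.043 to 0.196) lay above all 3 FK libraries (-0.245 to 0.003), so GC dependence and treatment go together in that comparison. With the trend on GC content and length removed, the log2 fold change for FK against DMSO was 1.74 in place of 1.504.

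The stretch in front of the RefSeq start of GDF15 and of STC2 is shown because these 2 genes had the largest folds over DMSO among members with more than 100 normalized counts in every library. Sequences are 250 bases, 5′ to 3′ on the gene's strand, from RefSeq on GRCh38.p14, whose tables hold 5 of the 8 members. GDF15 is chr19:18385908-18386157 (plus strand) and STC2 is chr5:173328415-173328664 (minus strand), both inside the gene as the deposited table bounds it. Capitals mark matches to the TATA box (TATAAA) or to the HIF-binding core (ACGTG or GCGTG), searched on both strands.
GDF15: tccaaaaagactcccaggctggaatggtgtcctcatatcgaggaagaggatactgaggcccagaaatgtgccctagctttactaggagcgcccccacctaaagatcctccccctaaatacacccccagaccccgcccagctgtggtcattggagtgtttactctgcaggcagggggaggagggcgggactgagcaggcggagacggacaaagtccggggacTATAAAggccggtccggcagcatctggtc
STC2: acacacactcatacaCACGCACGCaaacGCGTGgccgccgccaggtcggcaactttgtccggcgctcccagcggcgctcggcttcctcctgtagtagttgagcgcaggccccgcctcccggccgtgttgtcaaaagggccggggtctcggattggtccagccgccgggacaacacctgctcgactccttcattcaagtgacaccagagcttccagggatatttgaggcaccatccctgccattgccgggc
GDF15 has a TATA box from base -29 to -24 before its start, as 10.7% of 35116 promoters of this length hold one anywhere. STC2 has 3 HIF cores, of which the first 2 overlap on the opposite strand, and 43.2% of all promoters hold at least 1. Neither stretch holds the core of the site that ATF4 dimers bind (TGATGNAA, in 3.14% of promoters), a cyclic AMP element (TGACGTCA, in 1.65%) or an AP-1 site (TGANTCA, in 6.57%). A match is a description of letters only, and no match speaks only of this window.

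**Figure D1:**
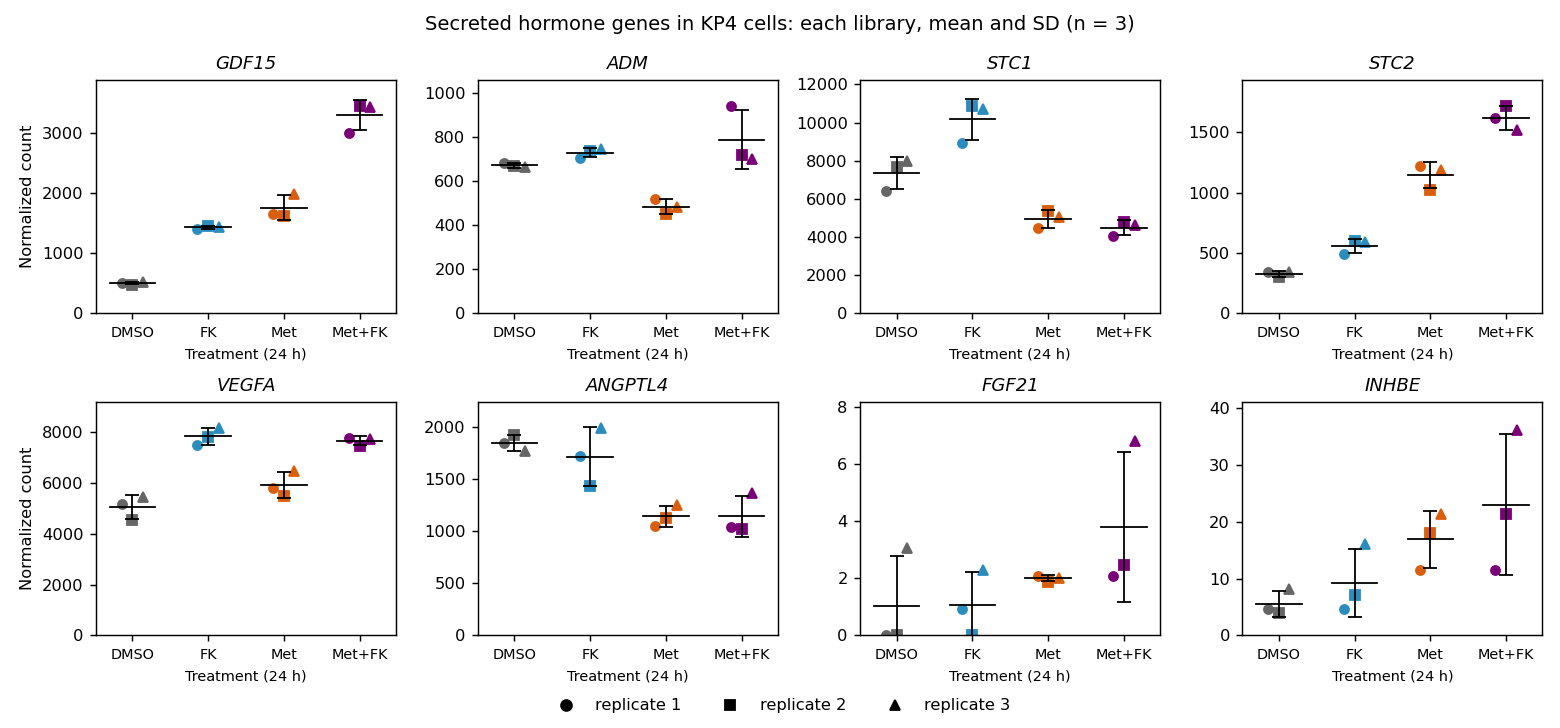
Normalized counts (vertical axes, each from 0) of the 8 hormone genes in the 12 KP4 libraries by treatment, with symbols for replicates 1 to 3, horizontal lines for means and bars for SD, cut off at 0. GDF15 and STC2 step up from DMSO through FK and Met to Met+FK with no overlap, while FGF21 never exceeds 6.83.

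STC2, stanniocalcin 2, is a secreted glycoprotein that blocks the proteases PAPPA and PAPPA2, which release insulin-like growth factors. It is encoded on chromosome 5 (173314713 to 173329503, minus strand). Its libraries held 340, 301 and 341 normalized counts in DMSO (327 ± 23.1) and 493, 601 and 589 in FK (561 ± 59.2). With metformin they held 1218, 1022 and 1191 (1144 ± 106), and with both drugs 1621, 1720 and 1515 (1619 ± 102). The groups did not overlap, in the same order as for GDF15. Met stood 3.48-fold above DMSO, as far as for GDF15 (log2 1.80, SE 0.103 throughout), but FK only 1.71-fold (log2 0.77). Met+FK was 4.94-fold above DMSO and 1.42-fold above Met (log2 0.50).

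STC1, the paralogue of STC2 and a secreted hormone linked to calcium and phosphate balance, had another order of treatments. It lies on chromosome 8 (23841929 to 23854806, minus strand). DMSO libraries held 6402, 7693 and 7994 normalized counts (7363 ± 846), and FK libraries 8928, 10886 and 10718 (10177 ± 1085). Met libraries held 4457, 5353 and 5054 (4954 ± 456), and Met+FK libraries 4058, 4810 and 4610 (4493 ± 390). FK therefore lay above DMSO and both groups with metformin below it, without overlap, while Met and Met+FK overlapped. FK alone gave a log2 fold change of 0.47 (SE 0.105 throughout), and FK on top of Met gave -0.14. Same-numbered libraries differed alike, with log2 ratios of FK to DMSO of 0.48, 0.50 and 0.42 in the 3 pairs and of Met+FK to Met of -0.14, -0.15 and -0.13. Met+FK against FK gave -1.18, the lowest of any member in any comparison.

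The 2 stanniocalcins thus differed under metformin, with log2 fold changes over DMSO of 1.80 for STC2 and -0.57 for STC1. Per kilobase of canonical transcript, which allows levels of different genes to be compared, STC1 stood at 1900 normalized counts per kb in DMSO and STC2 at 76.9. In Met+FK they stood at 1160 and 381. By that measure STC1 and VEGFA (1400) led the 8 genes in DMSO, followed by ANGPTL4 (985), ADM (450) and GDF15 (419), and in Met+FK GDF15 led with 2740, followed by VEGFA with 2120.

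VEGFA, the main growth factor for blood vessels and a classical target of HIF, is encoded on chromosome 6 (43770184 to 43786487, plus strand). It was read at 5175, 4537 and 5466 normalized counts in DMSO (5059 ± 475) and at 7504, 7812 and 8167 in FK (7828 ± 332). The values were 5806, 5495 and 6476 in Met (5925 ± 502) and 7781, 7471 and 7744 in Met+FK (7665 ± 170). FK and Met+FK overlapped with each other and lay above Met, and Met lay just above DMSO, with its lowest library at 5495 and the highest of DMSO at 5466. Against DMSO the log2 fold change was 0.63 with FK, 0.60 with Met+FK and 0.23 with Met (SE 0.081). A short gene on the opposite strand, AL136131.3, overlaps an exon of VEGFA at a mean of 14.2 normalized counts.

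ADM, adrenomedullin, is a peptide that widens blood vessels through the receptor CALCRL with a RAMP partner. It lies on chromosome 11 (10305073 to 10307397, plus strand). DMSO libraries held 682, 667 and 664 normalized counts (671 ± 9.69), and FK libraries 704, 739 and 746 (730 ± 22.4). Met libraries held 521, 451 and 481 (484 ± 35.0), and Met+FK libraries 942, 719 and 701 (787 ± 134). ADM was thus lowest with metformin alone, and the groups with and without FK on top of metformin did not overlap. The log2 fold change was -0.47 for Met against DMSO (SE 0.107 throughout), 0.12 with FK alone, and 0.69 when Met+FK was set against Met. The last rests in part on replicate 1 of Met+FK, without which it was 0.55. Met+FK and FK overlapped.

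ANGPTL4 is a secreted inhibitor of lipoprotein lipase, known to respond to fasting, PPAR ligands and low oxygen. It lies on chromosome 19 (8363289 to 8374370, plus strand). DMSO libraries held 1841, 1919 and 1773 normalized counts (1844 ± 73.3), and FK libraries 1723, 1433 and 1990 (1715 ± 279). Met libraries held 1048, 1129 and 1249 (1142 ± 101), and Met+FK libraries 1037, 1023 and 1370 (1143 ± 196). The 6 libraries with metformin all lay below the 6 without it, and within each of these sets FK and its control overlapped. Against DMSO the log2 fold change was -0.69 with Met and -0.70 with Met+FK (SE 0.127). With FK it was -0.12, and its sign turned with the GC trend removed (0.10). ANGPTL4 is as GC-rich as GDF15 (63.3%).

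The stretches of ADM and ANGPTL4 are shown because both are textbook HIF targets that were lower with metformin alone, and with both drugs ANGPTL4 was below DMSO and ADM above it. ADM is chr11:10304823-10305072 and ANGPTL4 is chr19:8363905-8364154, both on the plus strand, the latter inside the table's bounds of the gene, with capitals as above.
ADM: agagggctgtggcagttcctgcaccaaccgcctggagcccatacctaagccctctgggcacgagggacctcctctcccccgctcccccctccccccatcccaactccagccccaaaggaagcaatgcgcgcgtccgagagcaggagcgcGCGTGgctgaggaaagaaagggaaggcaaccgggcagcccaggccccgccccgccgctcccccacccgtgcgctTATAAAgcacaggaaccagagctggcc
ANGPTL4: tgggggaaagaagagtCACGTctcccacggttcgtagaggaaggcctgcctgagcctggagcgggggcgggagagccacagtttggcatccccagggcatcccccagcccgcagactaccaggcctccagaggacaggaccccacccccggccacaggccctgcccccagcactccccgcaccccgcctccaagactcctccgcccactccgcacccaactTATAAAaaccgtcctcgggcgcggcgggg
Each holds 1 HIF core, ADM from base -101 to -97 and ANGPTL4 from base -234 to -230 on the opposite strand, and each has a TATA box close to its start.

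FGF21 and INHBE, hormones made mainly by the liver, were too low to judge in these cells, FGF21 altogether and INHBE in most comparisons. FGF21, on chromosome 19 (48755524 to 48758333, plus strand), raises energy expenditure and responds to starvation. It had 0, 0 and 3 read pairs in DMSO, 1, 0 and 2 in FK, 2, 2 and 2 in Met, and 2, 3 and 7 in Met+FK. A count of 0 allows up to 3 read pairs, counting error only, so that no difference was detectable at this depth. A stretch of its promoter is shown because it alone of the 5 at hand holds the ATF4 core, here in capitals as read from the opposite strand (bases -80 to -21, chr19:48755444-48755503, plus strand, GRCh38.p14).
FGF21: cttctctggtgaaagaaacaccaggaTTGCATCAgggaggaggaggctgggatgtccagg
The core is that counted above in 3.14% of promoters.

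INHBE encodes the beta E subunit of activins, known to act on fat cells. It lies on chromosome 12 (57452323 to 57459280, plus strand), 57.3 kb before DDIT3. Its libraries held 4, 4 and 8 read pairs in DMSO, 5, 8 and 14 in FK, 11, 19 and 21 in Met, and 11, 26 and 37 in Met+FK. In normalized counts the means were 5.58 ± 2.28, 9.29 ± 5.99, 16.9 ± 4.99 and 23.0 ± 12.4. Both groups with metformin lay above DMSO without overlap, and FK overlapped with every other group. The log2 fold change of 1.46 (SE 0.460) for Met against DMSO was 0.78 with a pseudocount of 10 in place of 1. The exons of INHBE overlap AC022506.2 on the opposite strand, and whether counting used strand is not given in the sources used here. That gene did not follow INHBE, with 187 ± 13.5 in DMSO, 141 ± 8.04 in FK, 172 ± 20.5 in Met and 150 ± 18.9 in Met+FK.

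Counted over the 7 tested members, those past 1.5-fold with no overlap between the 2 groups were 4 for Met against DMSO, namely GDF15, STC2 and INHBE higher and ANGPTL4 lower, where 23.4% of all genes tested passed. For FK against DMSO they were 3, GDF15, STC2 and VEGFA, all higher (4.32% of all genes). For Met+FK against DMSO they were 6, with GDF15, STC2, VEGFA and INHBE higher and STC1 and ANGPTL4 lower (25.5%). INHBE, counted here and for Met against DMSO, entered the fit only through its levels with metformin, so both entries lean on the filter. For Met+FK against Met they were GDF15 and ADM, both higher (1.07%), which is the property these 2 genes were chosen for. Met+FK against FK gave 4, GDF15 and STC2 higher and STC1 and ANGPTL4 lower (19.4%), and Met against FK gave 3, STC2 higher and STC1 and ADM lower (16%). Since the members were chosen with such values in view, nothing is read from these shares. VEGFA lay just inside the threshold, at 1.55-fold with FK and 1.52-fold with Met+FK, and fell outside it without replicate 2 of DMSO (log2 0.56 and 0.53). ANGPTL4 in Met+FK against FK (0.666-fold) and ADM in Met against FK (0.663-fold) also lay just inside, and with libraries scaled to the same total both fell outside (log2 -0.53 and -0.49), as did ANGPTL4 in Met against DMSO (-0.57). STC1 in Met against DMSO (0.674-fold) and STC2 in Met+FK against Met (1.42-fold) lay just outside.

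**Figure D2:**
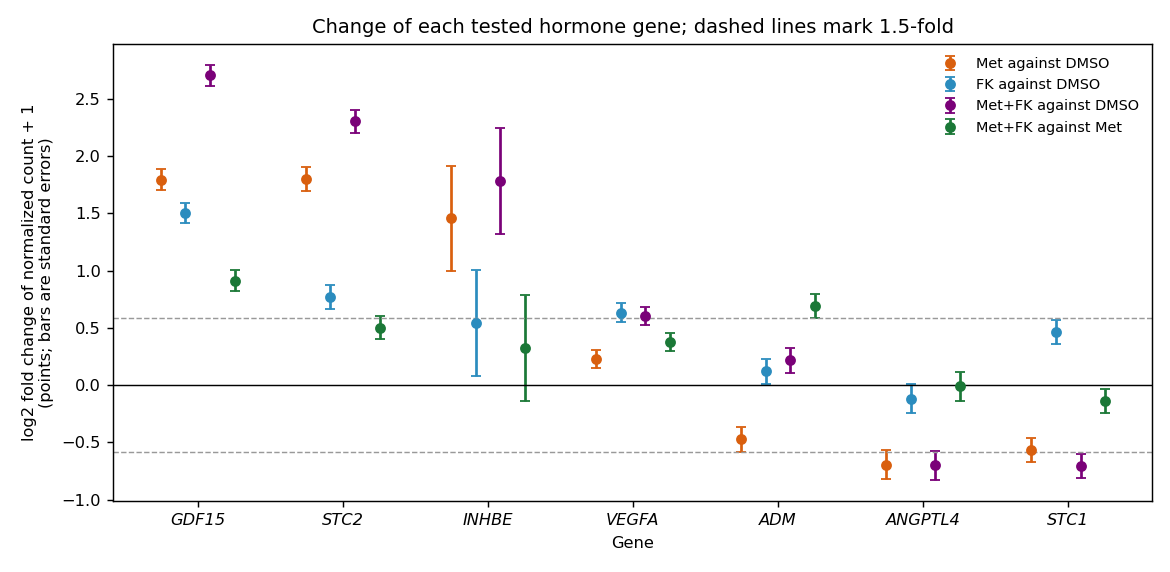
Log2 fold changes (points) with standard errors (bars) of the 7 tested hormone genes in 4 comparisons, ordered by gene, with dashed lines at 1.5-fold. GDF15 and STC2 have the same value for Met against DMSO (1.80) but not for FK against DMSO (1.504 and 0.77), and STC1 has opposite signs for FK and Met.

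Whether the 2 drugs together gave more than their separate effects depended on the scale for GDF15. On the log2 scale the response to FK was 1.504 without and 0.91 with metformin, a difference of -0.59 (SE 0.128). In normalized counts, adding both separate differences to DMSO predicts 2676, multiplying both folds predicts 4974, and 3293 was observed. The observed mean thus exceeded the sum by 617 ± 190 (SE) and fell short of the product. STC2 stood likewise between the sum (1377) and the product (1960), at 1619. GDF15 and ADM were chosen with Met+FK known to lie above Met, and that difference is part of each departure. An excess of GDF15 or ADM over a prediction was therefore favoured by the choice.

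ADM lay above both predictions, with 543 from the sum, 526 from the product and 787 observed, so that its interaction was 0.57 on the log2 scale (SE 0.152). The choice of ADM for Met+FK above Met favours such an excess, so nothing is read from it. Without replicate 1 of Met+FK the interaction of ADM was 0.43. STC1 lay below both, with 7769 and 6848 predicted and 4493 observed (interaction -0.61, SE 0.149). VEGFA also lay below both, with 8694 and 9168 predicted and 7665 observed (interaction -0.26, SE 0.115). For ANGPTL4 the interaction of 0.11 was smaller than its SE of 0.179. With the GC trend removed these terms were -0.88 for GDF15, 0.36 for ADM, -0.41 for STC1 and -0.17 for ANGPTL4, which turned sign. Among the members, the sign of the departure was the same on both scales for ADM, STC1, VEGFA and ANGPTL4, and differed for GDF15, STC2 and INHBE.

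**Figure D3:**
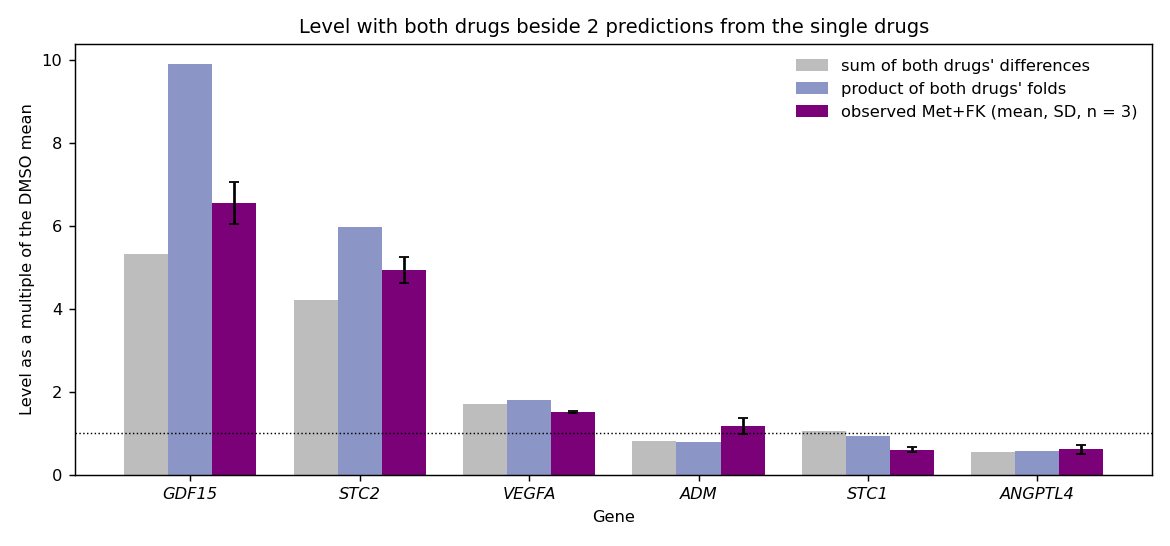
Level in Met+FK as a multiple of the DMSO mean (bars from 0) for 6 hormone genes, beside the level predicted by adding the separate differences of FK and Met and by multiplying their folds; error bars are SD over 3 libraries and the dotted line is the DMSO level. GDF15 and STC2 lie between both predictions, ADM above both, and STC1 and VEGFA below both. GDF15 and ADM were chosen with Met+FK known to lie above Met, which favours a high observed level.

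To see which genes resembled GDF15, Pearson's r with it over the 12 libraries was computed on log2(normalized count + 1) for 11515 genes outside the 8 with a mean of at least 100. The 12 points share 4 treatments, so r reads mostly the order and spacing of the treatment means. The 5 highest were FAM110B (0.986), NDRG1 (0.976), SLC2A3 (0.970), BMP2 (0.970) and KLF4 (0.969). By Spearman's rho only SLC2A3 of these stayed among the 5 highest, beside NBAS, AFF3, ATF3 and CCDC149. BMP2, a secreted ligand of the TGF-beta family like GDF15, went from 46.2 ± 3.88 normalized counts in DMSO to 112 ± 17.7 in FK, 121 ± 19.7 in Met and 210 ± 19.9 in Met+FK. SLC2A3, the glucose transporter GLUT3, went from 5418 ± 547 to 7175 ± 559, 7924 ± 252 and 9801 ± 519 in the same order. KLF4, a zinc finger transcription factor, went from 444 ± 46.3 to 698 ± 68.3, 948 ± 34.2 and 1243 ± 75.2, and FAM110B from 199 ± 1.90 to 357 ± 3.69, 365 ± 23.2 and 564 ± 49.7. Of the hormones, STC2 came closest to GDF15 (r = 0.943), at rank 28 of 11520 genes. VEGFA had 0.753 and ADM 0.095, and STC1 (-0.531) and ANGPTL4 (-0.745) ran the other way. INHBE had 0.776, but with a mean of 13.7 it was under the minimum of 100 and was not ranked. Its value rests on 4 to 37 read pairs per library.

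Around the hormones, 6 lists of genes were followed, with 127 genes in all, of which 97 were tested with limma-trend at an adjusted p under 0.05 and a fold over 1.5. The lists were also written with earlier results known. For Met against DMSO, 46 rose and 7 fell (median log2 fold change 0.55, against 0.01 for all genes tested), where 23% of all genes were called. For FK against DMSO, 9 rose and 1 fell (median 0.17 against -0.02 for all genes), where 3.49% were called. For Met+FK against DMSO, 46 rose and 8 fell (25.1%), for Met+FK against FK 38 rose and 9 fell (18.6%), and for Met against FK 33 rose and 7 fell (15.1%). For Met+FK against Met only ATF3 was called, where 0.0585% of all genes were, and 17 of the 97 had an unadjusted p under 0.05. With equal library totals the median of all genes for Met against DMSO was 0.13 in place of 0.01.

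Of 19 ATF4 targets, all of them tested, 18 rose and none fell with Met (median 1.22), where 23% of all genes were called. The other, SHMT2, had -0.07. CHAC1, which degrades glutathione, rose from 348 ± 45.3 to 1773 ± 106 normalized counts (log2 2.35, SE 0.116, adjusted p = 2.78e-09), and SESN2, a leucine sensor, from 1430 ± 261 to 6736 ± 742 (2.24). With FK alone 3 of the 19 rose, where 3.49% of all genes were called. Of these, SLC7A11, the cystine transporter, reached 4822 ± 1366 from 2321 ± 519 (1.04, adjusted p = 0.00687, not called with the GC trend removed), and ASNS, asparagine synthetase, 194 ± 29.5 from 109 ± 21.8 (0.83, adjusted p = 0.0109, but 0.0543 in a fit of these 2 treatments alone). The third was STBD1 (0.69), named after its values were seen, as was ALDH1L2, which the replicate block also called (0.75). ATF4 itself, named after its values were seen, rose with Met to 26674 ± 700 from 14469 ± 1091 (0.89, adjusted p = 2.61e-07) and stood at 14335 ± 1129 with FK.

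Of the 27 regulators of the hormone genes, 24 were tested. With Met 14 rose and 1 fell (median 0.70), where 23% of all genes were called. NUPR1, a stress-induced chromatin protein, rose from 13.4 ± 3.29 to 113 ± 14.0 (log2 3.01), and DDIT3, which encodes the ATF4 partner CHOP, from 791 ± 98.9 to 5602 ± 760 (2.82, adjusted p = 1.58e-09). ATF5 was called lower (-0.61, adjusted p = 0.000441), but not with equal library totals, TMM, the GC trend removed or edgeR, nor without replicate 3 of DMSO or replicate 2 of Met. With FK alone, ATF3 and NFE2L2 rose. ATF3, a stress-induced transcription factor, went from 636 ± 31.8 in DMSO to 1603 ± 120 in FK, 3921 ± 120 in Met and 6194 ± 267 in Met+FK, the order of GDF15. It rose by 1.33 with FK alone (adjusted p = 3.91e-07) and by 0.66 from Met to Met+FK (adjusted p = 0.00272). NFE2L2, the regulator of antioxidant genes, rose with FK by 0.61 (adjusted p = 0.0313), which was lost with the GC trend removed and without replicate 1 or 3 of DMSO or replicate 2 of FK. HIF1A, named after its values were seen, was not called with Met (-0.09) or FK (0.35). Of other HIF genes on the list, named likewise, EPAS1 was called higher with Met, from 1285 ± 127 to 1927 ± 63.7. Its log2 fold change of 0.589 (adjusted p = 5.16e-05 by limma-trend) lay just past the fold limit, and that of Met+FK against DMSO (0.540) lay under it. ARNT was not called with Met (0.15).

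HIF targets were mixed. Of 20 genes 19 were tested, and with Met 6 rose and 2 fell (median 0.36), where 23% of all genes were called. LOX, which cross-links collagen, rose from 84.3 ± 26.3 to 191 ± 23.0 (1.21, adjusted p = 0.000353), and NDRG1, a stress-responsive gene of the HIF list, from 1712 ± 73.8 to 3497 ± 176.8 (1.03). The glycolytic genes LDHA and PGK1 fell, LDHA from 48194 ± 1183 to 28319 ± 165 (-0.77, adjusted p = 1.26e-07) and PGK1 by 0.62 on the log2 scale, the latter not called with TMM or equal-total scaling or by edgeR. With FK, NDRG1 (0.60, adjusted p = 0.000342) and LOX (0.71, adjusted p = 0.0378) rose, but NDRG1 fell under the fold limit without replicate 2 of DMSO or of FK, EGLN3 (0.72) was called with the replicate block, and LOX was lost in 8 of 18 alternatives, among them those without replicate 1 or 3 of DMSO or replicate 1 or 2 of FK.

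**Figure D4:**
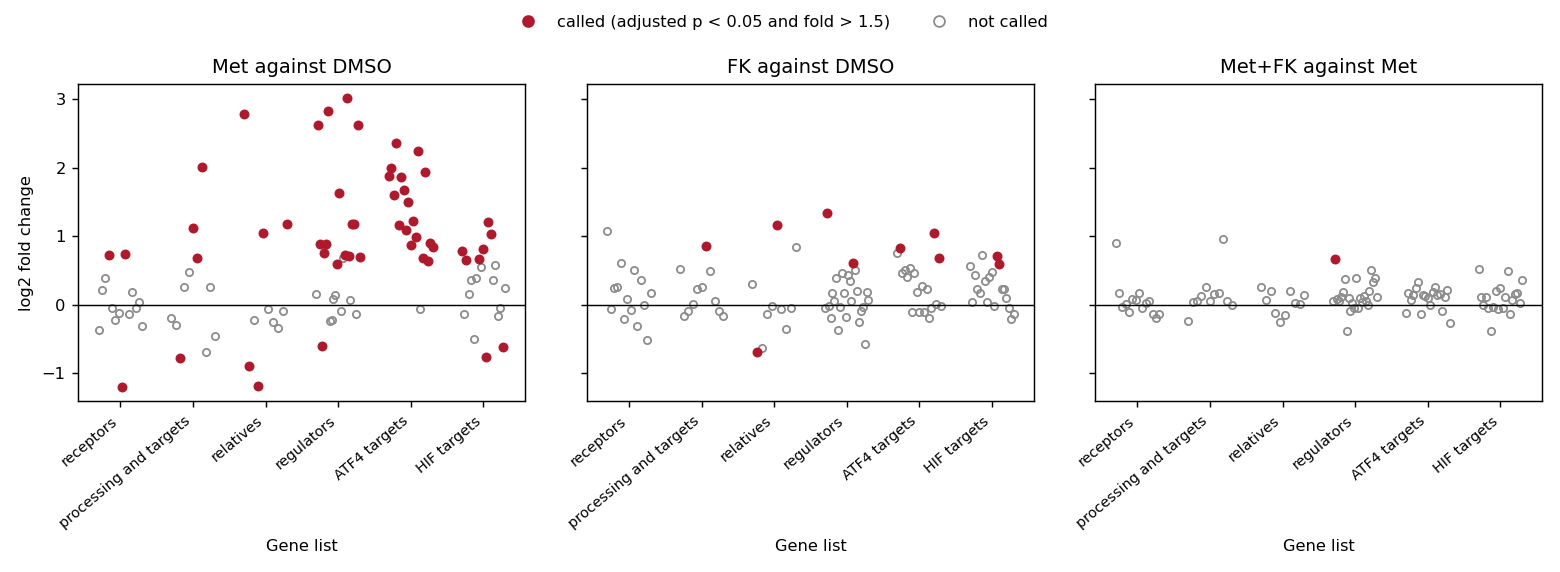
Log2 fold change (vertical axis) of each tested gene of the 6 lists (horizontal axis) for Met against DMSO, FK against DMSO and Met+FK against Met; red points were called by limma-trend at an adjusted p under 0.05 and a fold over 1.5. With Met 46 rose and 7 fell, with FK alone 9 rose and 1 fell, and with FK on top of Met 1 rose, ATF3.

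The cells held little RNA for several receptors of these hormones and much for others. Among the latter, NRP1 had group means from 7031 to 9063 and FGFR1 from 4929 to 5745. GFRAL, the GDF15 receptor, had a mean of 0.385 normalized counts in DMSO and 0 elsewhere, KDR, the main VEGFA receptor, was at 0 in all groups, and KLB, the co-receptor of FGF21, had means from 0 to 0.338. Of 23 receptor genes, 14 were tested, and with Met 2 rose and 1 fell (median -0.05), near the 23% of all genes called. ITGB1, an integrin subunit, rose from 14041 ± 1503 to 23367 ± 2799 (0.73, adjusted p = 0.000297) and ACVR2B, an activin receptor, from 351 ± 19.7 to 580 ± 31.4 (0.72, adjusted p = 0.000298), neither of them with the GC trend removed. FGFR3 fell from 63.2 ± 5.29 to 28.1 ± 10.9 (-1.20, adjusted p = 0.000507). With FK none of the 14 was called by limma-trend, and 6 had an unadjusted p under 0.05. With the replicate block ACKR3 (1.07) and CALCRL (0.60) were called higher, and 2 receptors were called without replicate 2 of DMSO and 1 without replicate 1 of FK.

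Of 14 genes for proteins that process the hormones or on which they act, 11 were tested. With Met 3 rose and 1 fell (median 0.26), where 23% of all genes were called. PAPPA2, a protease that STC2 inhibits, rose from 291 ± 36.9 to 1164 ± 68.9 (2.003, adjusted p = 1.78e-07), alongside STC2. PAPPA, another such protease, rose with Met from 54.3 ± 12.7 to 86.8 ± 14.9 (0.68, adjusted p = 0.0112) and with FK to 98.2 ± 17.4 (0.85, adjusted p = 0.0209), the first lost without replicate 3 of DMSO or replicate 1 of Met and with the GC trend removed, and the second without replicate 1 or 3 of DMSO or replicate 2 of FK. IGFBP4, the binding protein that PAPPA cleaves, fell from 1789 ± 70.5 to 1056 ± 194 (-0.77, adjusted p = 0.000271). PAM, which amidates peptides such as adrenomedullin, rose from 2620 ± 148 to 5714 ± 452 (1.123, adjusted p = 2.39e-07), while ADM itself was lower with Met. LPL, the enzyme that ANGPTL4 inhibits, was at 0 in all groups.

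Of 24 family relatives of the hormones only 10 were tested. With Met 3 rose and 2 fell (median -0.16), where 23% of all genes were called. VEGFD and INHA, 2 of the 3 that rose, were under 10 normalized counts in DMSO and entered the test only through treated groups, so that their calls lean on the filter. With at least 10 in every library, 3 relatives were called in place of 5. ADM2, which encodes intermedin, a peptide related to adrenomedullin, rose from 132 ± 16.1 to 915 ± 48.7 (2.79, SE 0.101, adjusted p = 1.31e-10) and stood at 1097 ± 40.1 with both drugs. VEGFD stood at 5.86 ± 2.62 in DMSO and 13.9 ± 2.30 in Met, and INHA, named after its values were seen, at 8.91 ± 3.40 and 18.9 ± 3.71. GDF11, a relative of myostatin, fell from 1388 ± 115 to 609 ± 25.1 (-1.18, adjusted p = 9.03e-08), and ADM5 fell from 88.1 ± 11.4 to 47.7 ± 12.4 (-0.89, adjusted p = 0.00443).

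With FK, ADM5 fell by 0.69 on the log2 scale (adjusted p = 0.0455, lost in 8 of 18 alternatives, among them those without replicate 1 or 3 of DMSO or replicate 2 of FK), and INHBA, the activin subunit beta A and a relative of INHBE, rose from 153 ± 18.6 to 349 ± 93.5 (1.16, adjusted p = 0.00482). INHBA stood at 149 ± 36.4 in Met and 132 ± 10.95 in Met+FK, so that its response to FK differed by -1.31 (SE 0.272) in the presence of metformin, with an adjusted p of 0.085. Of the 97 list genes the interaction was called for 1, ATF3 (-0.67, SE 0.108, adjusted p = 0.0407), where 0.0585% of all genes were called. That call was lost when any 1 library other than replicate 1 of FK was left out, and its adjusted p ranged from 2.26e-05 to 0.181 over 23 alternatives. With the replicate number as a block, 29 list genes were called, 10 with a positive and 19 with a negative term. The block called 4914 of all 15376 genes tested, so this count does not set the lists apart. The fall of the response on the log2 scale in ATF3 stands beside that of GDF15 (-0.59). For ATF3 too it depended on the scale. In normalized counts FK took its mean from 636 to 1603 without metformin and from 3921 to 6194 with it, a larger step.

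**Figure D5:**
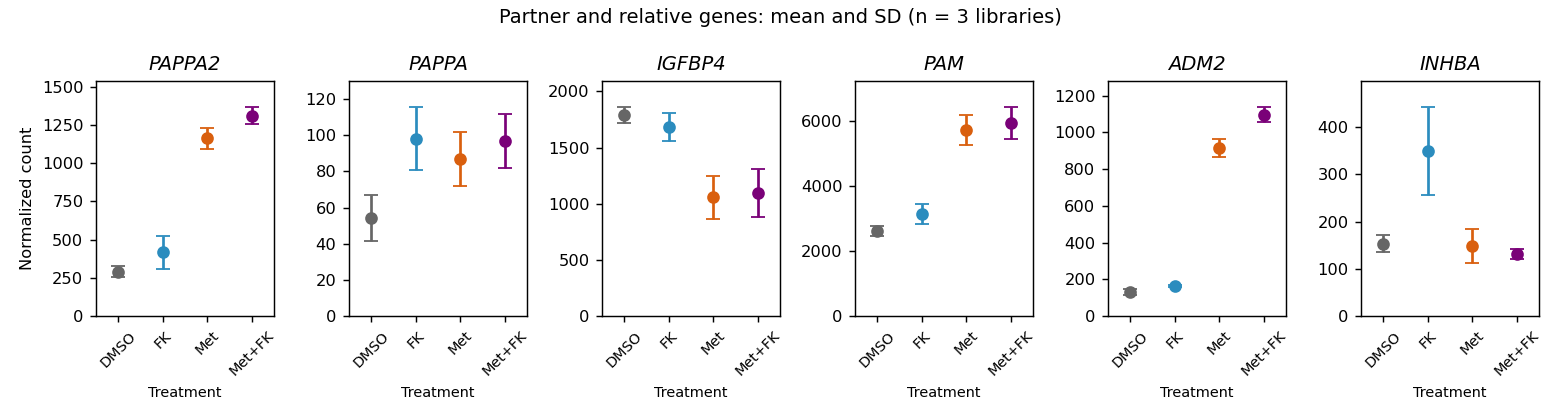
Mean normalized counts (points, axes from 0) with SD over 3 libraries (bars) by treatment for the STC2 targets PAPPA2 and PAPPA, the PAPPA substrate IGFBP4, the amidating enzyme PAM, the adrenomedullin relative ADM2 and the activin subunit INHBA. PAPPA2, PAM and ADM2 are high in both groups with metformin, IGFBP4 is low in both, and INHBA is high with FK alone.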

How the data were processed

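RNA of 12 KP4 libraries was analysed, 3 for each of 4 treatments. The authors used cutadapt for trimming, STAR for alignment to hg38, featureCounts for counting read pairs per gene and DESeq2 for normalization. The gene annotation and strand setting are not given in the sources used here. The deposited values are a signal, namely gene counts divided by a size factor per library (0.867 to 1.21). Read pairs were recovered from the steps of the values, 100% of which came out whole within 0.01 reads. Table positions count starts from 0 and are given here from 1. Replicates differed beyond sampling noise (a chi-square of 5.69 to 51.5 per degree of freedom), so each library counts once, and p-values measure only the spread between these libraries, which may be technical.

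The members and lists were chosen with earlier results of these data known. Fold changes, SEs and calls came from limma-trend (limma 3.58.1, R 4.3.3) on log2(normalized count + 1) in 1 fit of all libraries over the 15376 genes whose mean was 10 or higher, adjusted by Benjamini-Hochberg over all of them. A fold change understates that of low genes. A call needed an adjusted p under 0.05 and a fold over 1.5, without a fold limit for the interaction, (Met+FK minus Met) minus (FK minus DMSO). The scripts were tested on simulated data. On the read pairs edgeR (4.0.16) called 3524 genes for Met and 616 for FK, each against DMSO, and 9 between Met+FK and Met.

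Named are all members, the 5 genes most like GDF15, and list genes called in the interaction. In each list, up to 2 genes with the largest rise among those called higher are also named. So are up to 2 with the largest fall among those called lower. This was done for Met against DMSO, FK against DMSO and Met+FK against Met. Alternatives were pseudocounts of 0.1 and 10, no filter, at least 10 in every library, equal totals, TMM, edgeR, DESeq2 (1.42.0), the 2 treatments alone, the replicate block, removal of a loess trend (span 0.3) on GC content and length of the GENCODE 44 canonical transcript (99.7% of tested genes) with and without the block, and each library left out. Pairing of libraries by replicate number was judged by correlating, across genes, their deviations from the group mean. FK correlated with DMSO at 0.25, 0.42 and 0.22. Met+FK correlated with Met at 0.17, 0.20 and 0.23. Calling these libraries paired rests on such values and not on the labels. The main fit, which gave the fold changes, SEs and calls, did not use pairing. It entered only the alternatives with the replicate block and the ratios of same-numbered libraries. For each other pair of groups at least 1 correlation was 0.1 or lower. The replicate block fits the same effect of replicate number in all treatments. Its interaction calls thus also rest on pairings that these correlations do not bear out.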

Additional observations from a re-analysis of the deposited data

Results flagged for a closer look

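Groups of 3 libraries were not examined for outlying samples. For 4 genes the response to a drug stood out with the other drug present. For ATF3 the response to FK differed by -0.67 on the log2 scale with metformin present (adjusted p = 0.0407 by limma-trend, kept in 11 of 23 alternatives). In normalized counts its step with FK was larger with metformin (3921 to 6194) than without it (636 to 1603). For STC1 every library of FK lay above those of DMSO by a mean of 0.47, while the mean of Met+FK was 0.14 below that of Met and was lower in each same-numbered pair, a difference of -0.61 that was not tested. For VEGFA, Met against DMSO was 0.23 and Met+FK against FK -0.03, a difference of -0.26 that was not tested. Every Met+FK library lay below the FK mean, although the groups overlapped, 1 of 3 same-numbered pairs went the other way, and the sign of the second value turned with libraries scaled to the same total (0.03). For INHBA the response to FK was 1.16 without and -0.15 with metformin, a difference of -1.31 (adjusted p = 0.085 by limma-trend). Their causes were not tested.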

How the results depend on the processing

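The log2 fold changes of GDF15 kept their sign in all 18 alternatives of each comparison, and its interaction in all 23. With the GC and length trend removed, with or without the replicate block, GDF15 moved to 1.98 for Met against DMSO, 1.74 for FK against DMSO, 2.84 for Met+FK against DMSO, 1.100 for Met+FK against FK and -0.88 for the interaction. With libraries scaled to the same total its FK mean was 1394. By Spearman's rho, 1 of the 5 genes most like GDF15 stayed. Of 97 list genes, FK against DMSO called 10, 5 with the 2 treatments alone and 5 to 13 without 1 library, with 5 without replicate 2 of FK and 6 without replicate 3 of DMSO. Met+FK against Met called 1 to 2 without 1 library, 2 without replicate 3 of Met. The interaction called 1 list gene, 0 without the filter, 29 with the replicate block (shared by all treatments), 5 with the GC trend removed, 13 with both, 6 by DESeq2 and 0 to 13 without 1 library, the highest without replicate 1 of FK. Over all genes, FK against DMSO called 536, but 112 with the 2 treatments alone, 199 with the GC trend removed, 256 with the block too, 94 without replicate 1 of DMSO and 1202 without replicate 2 of DMSO. Met+FK against Met called 9, but 18 with the 2 treatments alone, 25 with the block, 21 with the GC trend removed, 35 with both, 20 by DESeq2 and 2 without replicate 2 of Met. The interaction called 9, but 1 without the filter, 4914 with the block, 92 with the GC trend removed, 1068 with both, 695 by DESeq2, and 0 to 1845 without 1 library. Besides the interaction, the block moved the count of receptors called for FK against DMSO, from 0 to 2, and no other single list's count by over 1.5 times. FGF21 was not tested, and a minimum of 10 in every library also left out INHBE and took the relatives called for Met against DMSO from 5 to 3. The causes were not tested.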
